A study of Homo sapiens with 4 samples.

Results

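The genes examined here are 52 genes of the interferon response and of RNA sensing, measured in DU145 cells that carried an shRNA against DCUN1D1 or an shRNA against GFP. DU145 is an established androgen-independent cell line from a human prostate carcinoma, and DCUN1D1 is a ligase component that promotes the attachment of the ubiquitin-like protein NEDD8 to cullins. The genes were taken from a list of 53 symbols, of which DDX58 and RIGI name the same gene, and a probe set was counted as a member when its annotation names a listed gene and no other. On this rule 51 of the 52 genes were measured, by 103 probe sets, out of 19774 genes and 40914 probe sets that name 1 gene. STAT2 was not analysed here. A probe set combines several short probes that match the same transcript, and 23 of the genes have 1 probe set while 28 have several, at most 6.

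Cells detect foreign RNA through cytoplasmic helicases such as RIG-I and MDA5 and through endosomal Toll-like receptors, and these sensors induce type I interferon. Secreted interferon acts on the receptor formed by IFNAR1 and IFNAR2, whose kinases JAK1 and TYK2 activate a complex of STAT proteins and IRF9, which binds the interferon-stimulated response element in the promoters of a large set of antiviral genes. Viral vectors and double-stranded RNA such as a short hairpin can engage the same sensors, so a vector control is used to hold this response equal between the groups.

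Both groups carry an shRNA delivered by lentivirus. The control group, shGFP, consists of 2 arrays and the knockdown group, shDCUN1D1, of 2 arrays, called biological duplicates in the sample records. No array of untransduced cells was analysed here, so the comparison is between 2 vectors and carries no measure of a response that both share. By the sample records, all cells were grown for 16 h before RNA extraction, and 1 µg of total RNA was labelled for each array. The paper's methods instead describe RNA collected within days of infection. Whether the shRNAs were stably expressed or newly delivered is therefore unsettled. More than a single DCUN1D1 hairpin is described in the methods, and which of them each shDCUN1D1 array carried is not recorded. The records of all 4 arrays also mention DMSO. Nothing further in the records separates the duplicates into independent transductions, so the p-values measure the spread between these arrays only. In bulk RNA, fewer responding cells and less RNA per cell cannot be told apart.

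DCUN1D1, the targeted gene, was dim on every array. Its brightest probe set read 2.55 and 1.99 in the control arrays and 1.60 and 1.45 in the knockdown arrays on the log2 scale, a difference of −0.75 (SE 0.26; −0.22 for the mean of its probe sets) that did not reach the fold bound defined below, and 4 of its 6 probe sets were lower in both shDCUN1D1 arrays than in either shGFP array. One knockdown array, shDCUN1D1 replicate 1, was unlike the rest. Over probe sets the control arrays correlated (Pearson) at 0.914 with each other. With shDCUN1D1 replicate 2 the correlation was 0.916 for control replicate 1 and 0.827 for control replicate 2. The unlike array, shDCUN1D1 replicate 1, correlated at 0.722 and 0.661 with the shGFP arrays and at 0.746 with shDCUN1D1 replicate 2. GAPDH, read by a control probe set at its 3′ end, had a log2 signal of 10.82 in it and of 4.68 to 5.09 elsewhere, while the middle GAPDH probe set read 9.05 to 11.07 over the 4 arrays. The 3′ actin control likewise read 8.30 in it and 3.95 to 4.35 elsewhere, and the middle actin control 9.65 to 10.55. In shDCUN1D1 replicate 1 the 3′ and middle GAPDH controls were thus close, at 10.82 and 11.07. The 3′ actin control of that array, at 8.30, still read below its middle actin control, at 10.48. On the other arrays the 3′ controls of both genes read far below the middle ones. A low signal on those arrays need not mean a scarce transcript. The bioB hybridization spikes read 7.53 to 8.01 in shGFP replicate 1 and 10.15 to 10.33 in shGFP replicate 2. They read 5.93 to 6.90 in both shDCUN1D1 arrays. The part of these differences in the results was not tested. Members named below that are high in shDCUN1D1 replicate 1 alone are therefore also given without it. KRT8, a keratin of glandular epithelium, read 3.25 to 3.73 on all 4 arrays with its brighter probe set and was lower past the bound, by −1.89 log2, with the other. The further epithelial markers KRT19, EPCAM and CDH1 lay under the nonspecific control with 20 G or C bases described below, and KRT18 read 7.62 in shDCUN1D1 replicate 1 and 1.63 to 1.69 elsewhere, a difference of 3.004 that became 0.04 without that array. Of the markers of luminal prostate cells, 3 genes were measured, by 11 probe sets, with 0 past the bound. Of the leukocyte markers, 5 genes were measured, by 10 probe sets, and 0 of these lay above that control on any array.

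The promoters of these genes carry the binding sequence of the interferon-activated complex far more often than other promoters do. The core of the interferon-stimulated response element was searched for as GAAA repeated on the same strand after any 2 bases, on both strands, in RefSeq promoter windows of GRCh38.p14 that run from 250 bases before to 50 bases after each start. The core was present in 26 of the 41 member genes that have a window (63.4%), against 4.38% of all 27305 genes in the table. The windows of 5 genes that recur below are shown around the core, in the direction of the gene. Capitals mark the copy of the core nearest to the start among those before it. Further, overlapping or nearby copies in ISG15, IFIT1, BST2 and B2M are left in lower case. The genes were chosen because ISG15 is the brightest member, IFIT1 and RSAD2 are standard reporters of interferon, and BST2 and B2M had the largest differences in each direction.

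ISG15, chr1:1013365-1013424, plus strand: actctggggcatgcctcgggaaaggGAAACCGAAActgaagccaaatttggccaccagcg

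IFIT1, chr10:89392495-89392554, plus strand: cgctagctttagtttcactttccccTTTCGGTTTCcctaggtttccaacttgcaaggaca

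RSAD2, chr2:6877607-6877666, plus strand: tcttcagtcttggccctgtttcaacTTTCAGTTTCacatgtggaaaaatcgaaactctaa

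BST2, chr19:17405720-17405779, minus strand: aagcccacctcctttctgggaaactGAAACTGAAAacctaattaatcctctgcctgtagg

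B2M, chr15:44711354-44711413, plus strand: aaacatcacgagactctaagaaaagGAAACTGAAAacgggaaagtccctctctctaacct

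In ISG15, BST2 and B2M the marked core reads in the direction of the gene, and in IFIT1 and RSAD2 it lies on the opposite strand. Its last base lies 98 bases before the start in ISG15, 94 in IFIT1, 136 in RSAD2, 115 in BST2 and 129 in B2M. The medians of the genes with and without the core both lay near 0. The brightest probe sets of the 26 measured genes with the core had a median log2 fold change of 0.01, with 13 of them above 0 and a range from −0.86 in BST2 to 4.40 in B2M. In the 14 measured genes with a window but no core the median was 0.11, with 8 of them above 0. Without shDCUN1D1 replicate 1 the medians were 0.08 with the core and 0.00 without it. A match to these letters is a description of the window and does not show that a factor binds there.

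Most of the interferon and RNA-sensing genes gave low signals in both groups, within the span of the nonspecific control probe sets of the array. These controls brighten with their content of G and C, from 0.82 to 0.98 with 3 such bases to 5.61 to 7.003 with 25, and the composition of the member probes was not examined, so that no single background level applies to all of them. The control used here as a mark, with 20 G or C bases, read 2.97 and 3.30 in the control arrays and 2.48 and 2.51 in the knockdown arrays. Only ISG15 and IFI35 lay above this control on all 4 arrays, 2 of 103 probe sets (1.94%, against 4.39% of all probe sets). A further 17 lay above it on some arrays and 84 on none (81.6%, against 76.1% of all). Against the control with 17 G or C bases, a choice made after the data were seen, 7 member probe sets were above it on all arrays and 54 on none (52.4%, against 52.5% of all), and against the control with 12 such bases 54 were above it on all arrays and 3 on none. By array, with the control of 20 bases, 3 and 3 member probe sets exceeded this control in the shGFP arrays and 17 and 9 in the shDCUN1D1 arrays, and the control itself was lower in the latter. Over all probe sets these shares were 8.97% and 6.07% in the shGFP arrays and 18.7% and 14.5% in the shDCUN1D1 arrays. The median member signal was 1.51 and 1.55 in the control arrays and 1.54 and 1.57 in the knockdown arrays.

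IFIT1, MX1, RSAD2 and IFI27, used as reporters of an interferon response, were among the dim genes, whereas the interferon-stimulated ISG15 was the brightest member. IFIT1, which binds viral RNA that lacks the host cap methylation, read 1.51 and 1.53 in the control arrays and 1.35 and 1.23 in the knockdown arrays. MX1, a dynamin-like antiviral GTPase, read 1.27 and 1.34 in the shGFP arrays and 1.41 and 1.63 in the shDCUN1D1 arrays. RSAD2, which encodes viperin, read 1.75 and 1.48 in the shGFP arrays and 1.44 and 1.98 in the shDCUN1D1 arrays. IFI27, a small membrane protein strongly induced by type I interferon, read 1.07 and 1.45 in the shGFP arrays and 1.21 and 1.15 in the shDCUN1D1 arrays. None of these values reached the control of 20 G or C bases, though RSAD2 in shDCUN1D1 replicate 2 was above that of 17, and the groups overlapped for RSAD2 and IFI27, while both knockdown arrays lay below both controls for IFIT1 and above them for MX1. The 95% confidence intervals of the log2 fold changes, from limma's moderated error, were −0.54 to 0.08 for IFIT1, −0.14 to 0.57 for MX1, −0.53 to 0.71 for RSAD2 and −0.46 to 0.30 for IFI27. Where a signal is largely nonspecific, such an interval describes the probe set and limits the change of the transcript less tightly.

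**Figure D1:**
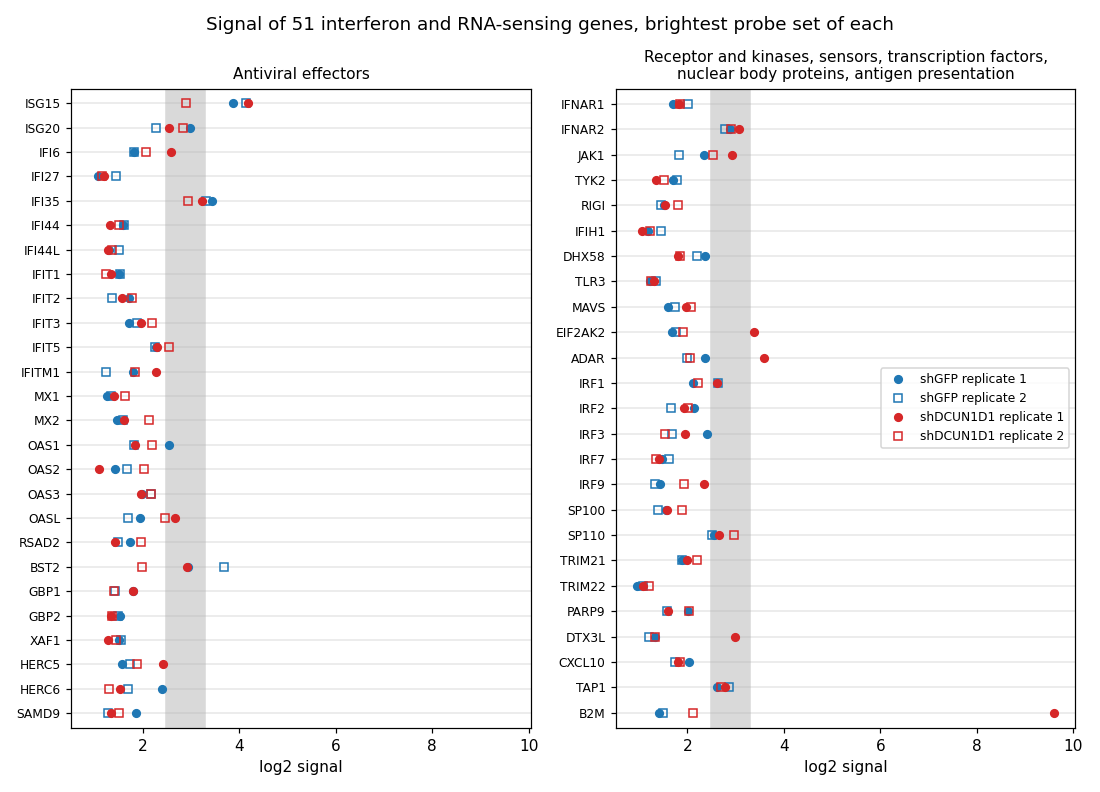
Log2 signal (x axis) of the brightest probe set of each of the 51 measured genes in the 4 arrays, with the 26 antiviral effectors on the left and the other genes on the right. The shaded band marks where the nonspecific control with 20 G or C bases lay over the arrays, 2.48 to 3.30, and most points lie to its left, while the shDCUN1D1 replicate 1 value of B2M lies at 9.61.

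The comparison of the 2 groups asks whether the vector against DCUN1D1 and the vector against GFP differ in an innate response. It gave a single member past the fold bound. A probe set was called past this bound when the lower 90% confidence limit of its fold change, from the moderated standard error of limma, was over 1.2. Of the 103 member probe sets 1 was higher in shDCUN1D1 cells, that of IRF9, where 1.18% of all 40914 probe sets were higher, and 0 were lower, where 2.38% of all were lower. After Benjamini-Hochberg adjustment over all probe sets, limma called 0 members at 0.05, as it called 0 of all probe sets (0%), and the smallest adjusted p was 0.625. Without adjustment, limma had a p under 0.05 for 3 members that were higher (IRF9, OASL and SP110), against 2.3% of all probe sets, and 2 that were lower (SP100 and OAS3), against 5.25% of all.

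Differences of both signs occurred among the members. Both knockdown arrays lay above both control arrays for 29 of the 103 member probe sets, against 7316 of all 40914 (17.9%). They lay below both for 22, against 10230 of all (25%), and overlapped the controls for 52, against 23368 of all. The share above was thus larger than over all probe sets and the share below smaller, which was not tested. The median log2 fold change of the members, shDCUN1D1 minus shGFP, was 0.05, against −0.01 over all probe sets, with 58 above 0 and 45 below. Without shDCUN1D1 replicate 1 the members' median was 0.03, and without shDCUN1D1 replicate 2 it was also 0.03. The 95% interval of the difference lay within 1 log2 on both sides for 80 of the 103 probe sets (77.7%, against 68.0% of all). Its upper end was over 1 for 16, against 8170 of all 40914, and its lower end was under −1 for 11, against 6938 of all. A doubling or a halving of signal thus lies within the interval of those. With 2 arrays a group, an exact two-sided permutation test of a single gene cannot go below p = 0.333.

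**Figure D2:**
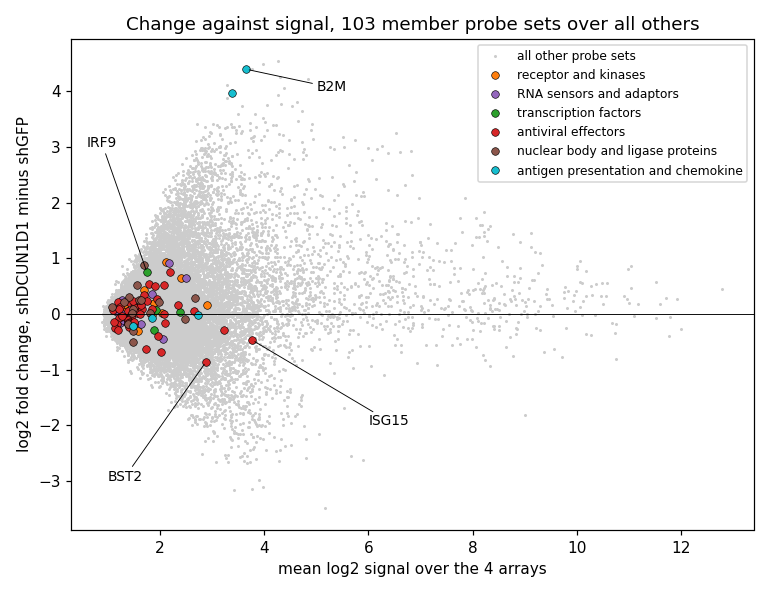
Mean log2 signal over the 4 arrays (x axis) against the log2 fold change, shDCUN1D1 minus shGFP (y axis), for the 103 member probe sets, coloured by role, and all other probe sets in grey. The members crowd at the dim end between 1.08 and 3.77 and lie on both sides of 0, with the brighter B2M probe sets apart near 4.

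The receptor and its kinases are the 4 genes IFNAR1, IFNAR2, JAK1 and TYK2, with 13 probe sets and 0 past the fold bound in either direction. IFNAR2, the subunit that binds interferon with high affinity, read 2.88 and 2.78 in the control arrays and 3.07 and 2.90 in the knockdown arrays, a log2 fold change of 0.15 (SE 0.33), or 0.02 under quantile normalization. JAK1, a tyrosine kinase shared by type I and type II interferon receptors, has several probe sets. The brightest read 2.35 and 1.82 in the shGFP arrays and 2.93 and 2.54 in the shDCUN1D1 arrays, a difference of 0.65 (SE 0.33). In this probe set both knockdown arrays were the higher ones. A second JAK1 probe set differed by 0.94, but it read 3.75 in shDCUN1D1 replicate 1 and 1.42 to 1.77 elsewhere, and the difference was −0.22 without that array. TYK2, the kinase on IFNAR1, read 1.69 and 1.77 in the shGFP arrays and 1.36 and 1.51 in the shDCUN1D1 arrays, a difference of −0.30 (SE 0.15). The median over the probe sets of the group was 0.16.

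The RNA sensors and their adaptors are 7 genes with 15 probe sets, and 0 passed the fold bound. RIGI, the helicase that senses triphosphorylated RNA, read 1.51 and 1.45 in the control arrays and 1.53 and 1.80 in the knockdown arrays, and TLR3, the endosomal receptor of double-stranded RNA, read 1.22 and 1.36 in the shGFP arrays and 1.32 and 1.24 in the shDCUN1D1 arrays. The brightest probe set of IFIH1, which encodes MDA5, read 1.18 and 1.45 in the shGFP arrays and 1.06 and 1.23 in the shDCUN1D1 arrays. These sensors were all under the control of 20 G or C bases. For the brightest of 3 RIGI probe sets the knockdown arrays lay above both shGFP arrays by a small margin, while another RIGI probe set read 1.35 and 1.51 in the shGFP arrays and 1.27 and 1.32 in the shDCUN1D1 arrays. In the brightest probe sets the groups overlapped for TLR3 and IFIH1. DHX58, which encodes LGP2, a helicase without a signalling domain, read 2.37 and 2.20 in the shGFP arrays and 1.81 and 1.85 in the shDCUN1D1 arrays, a difference of −0.45 (SE 0.21) with no overlap between the groups.

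EIF2AK2 and ADAR both act on double-stranded RNA. The first encodes the kinase PKR, which stops translation, and the second the enzyme that converts adenosine to inosine and so marks RNA as self. EIF2AK2 read 1.68 and 1.77 in the control arrays, 3.37 in shDCUN1D1 replicate 1 and 1.90 in shDCUN1D1 replicate 2. Its log2 fold change of 0.91 (SE 0.51) became 0.18 without shDCUN1D1 replicate 1. ADAR read 2.36 and 1.999 in the controls, 3.58 in shDCUN1D1 replicate 1 and 2.06 in shDCUN1D1 replicate 2, a difference of 0.64 (SE 0.56) that turned to −0.12 without shDCUN1D1 replicate 1 and was 0.40 under quantile normalization. Both genes were thus higher in a single knockdown array, and the other knockdown array lay above both controls for EIF2AK2 by a small margin and between them for ADAR.

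Of the 6 transcription factors 5 were measured, with 6 probe sets. IRF9, the DNA-binding subunit of the complex that carries the type I interferon signal, read 1.43 and 1.33 in the control arrays and 2.34 and 1.92 in the knockdown arrays. Both knockdown values were above both controls, and all 4 were under the control of 20 G or C bases of their array, while the knockdown values, the second barely, were above that of 17. The log2 fold change was 0.75 (SE 0.21, unadjusted p = 0.0167 and adjusted p = 0.625 in limma), with a lower 90% limit of 1.25-fold. This probe set was no longer past the bound without control replicate 1, without control replicate 2 or without shDCUN1D1 replicate 1, where its log2 fold change was 0.80, 0.70 and 0.54. The promoter window of IRF9 holds no match to the response element core. IRF3, the factor that TBK1 activates downstream of the sensors, read 2.40 and 1.68 in the shGFP arrays and 1.95 and 1.55 in the shDCUN1D1 arrays, a difference of −0.29 (SE 0.32) with overlapping groups. IRF7, the interferon-induced factor that amplifies the response, read 1.48 and 1.62 in the shGFP arrays and 1.40 and 1.35 in the shDCUN1D1 arrays, a difference of −0.17 (SE 0.13). IRF1 and IRF2, an activator and a repressor that bind related sites, differed by 0.03 and 0.08.

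The antiviral effectors are the largest group, with 26 genes and 48 probe sets, and 0 passed the fold bound in either direction. Both knockdown arrays lay above both controls for 11 probe sets and below for 12, against 17.9% and 25% of all probe sets. The median log2 fold change was −0.01. ISG15, a ubiquitin-like protein conjugated to viral and host proteins, was the brightest member, with 3.88 and 4.14 in the control arrays, 4.18 in shDCUN1D1 replicate 1 and 2.89 in shDCUN1D1 replicate 2. The difference of −0.47 (SE 0.61) became 0.17 without shDCUN1D1 replicate 2 and −1.01 under quantile normalization. IFI35, an interferon-induced leucine zipper protein, read 3.45 and 3.31 in the shGFP arrays and 3.22 and 2.94 in the shDCUN1D1 arrays, a difference of −0.29 (SE 0.39), or −0.53 under quantile normalization. The knockdown arrays were the lower ones for IFI35, in the deposited scale by less than its error.

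BST2, or tetherin, holds enveloped virus particles at the surface of the cell. It read 2.95 and 3.69 in the control arrays and 2.93 and 1.98 in the knockdown arrays, so that the first array of each group was nearly equal. Its log2 fold change of −0.86 (SE 0.50) was the most negative among the members and became −1.33 without shDCUN1D1 replicate 1, when it passed the fold bound as lower, a call that sets a lone knockdown array against 2 controls and takes its spread from the controls. OASL, an oligoadenylate synthetase-like protein that enhances RIG-I signalling, read 1.94 and 1.70 in the shGFP arrays and 2.67 and 2.46 in the shDCUN1D1 arrays, a difference of 0.74 (SE 0.24). Both knockdown arrays lay above both controls for this probe set, and its lower limit of 1.19-fold fell just short of the bound. The second OASL probe set read 1.49 and 1.79 in the shGFP arrays and 2.20 and 1.53 in the shDCUN1D1 arrays, a difference of 0.23 that turned to −0.10 without shDCUN1D1 replicate 1. HERC6, of the HERC family to which the ISG15 ligase HERC5 belongs, read 2.40 and 1.70 in the shGFP arrays and 1.53 and 1.30 in the shDCUN1D1 arrays, a difference of −0.64 (SE 0.28), whereas its 3 other probe sets differed by 0.16, 0.24 and 0.09. OAS1, OAS2 and OAS3, the enzymes that make the activator of the antiviral ribonuclease, differed by −0.16, 0.01 and −0.01 with their brightest probe sets, while the dimmer OAS3 probe set read 2.20 and 2.55 in the shGFP arrays and 1.47 and 1.90 in the shDCUN1D1 arrays, a difference of −0.69 (SE 0.27).

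The nuclear body and ligase proteins are 6 genes with 16 probe sets, of which 0 passed the bound. SP100 and SP110 are nuclear body proteins. The brightest SP100 probe set read 1.56 and 1.39 in the control arrays and 1.57 and 1.89 in the knockdown arrays, a difference of 0.25, while another read 1.82 and 1.66 in the shGFP arrays and 1.25 and 1.21 in the shDCUN1D1 arrays, a difference of −0.51 (SE 0.14, lower limit 1.18-fold). The probe sets of SP100 thus moved apart, with no overlap between the groups in either, by a small margin in the brightest. SP110 read 2.55 and 2.51 in the shGFP arrays and 2.66 and 2.97 in the shDCUN1D1 arrays with its brightest probe set, a difference of 0.29, and another of its probe sets differed by 0.53 (SE 0.17, lower limit 1.14-fold). DTX3L, the ligase partner of PARP9, read 1.32 and 1.204 in the controls, 2.98 in shDCUN1D1 replicate 1 and 1.32 in shDCUN1D1 replicate 2. Its log2 fold change of 0.89 became 0.06 without shDCUN1D1 replicate 1. TRIM21, a cytosolic antibody receptor, and TRIM22 differed by 0.21 and 0.12, and PARP9 by 0.02.

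The antigen presentation and chemokine genes CXCL10, TAP1 and B2M have 5 probe sets, of which 0 passed the bound. B2M, the light chain of every class I molecule, had the largest log2 fold change of all members, and it lay in a single array. Its brightest probe set read 1.42 and 1.498 in the control arrays, 9.61 in shDCUN1D1 replicate 1 and 2.11 in shDCUN1D1 replicate 2, and its second read 1.25 and 1.53 in the controls, 9.52 in shDCUN1D1 replicate 1 and 1.21 in shDCUN1D1 replicate 2. The third B2M probe set read 1.39 in shDCUN1D1 replicate 1 and 1.35 to 1.78 in the other arrays. The difference of the brightest was 4.40 (SE 2.40, 95% interval −1.74 to 10.5) with all arrays, 8.15 without shDCUN1D1 replicate 2 and 0.65 without shDCUN1D1 replicate 1. CXCL10, a chemokine that attracts T cells and is strongly induced by interferon, read 2.04 and 1.75 in the shGFP arrays and 1.81 and 1.84 in the shDCUN1D1 arrays, a difference of −0.07 (SE 0.20). TAP1, the peptide transporter of class I loading, read 2.62 and 2.87 in the shGFP arrays and 2.77 and 2.69 in the shDCUN1D1 arrays, a difference of −0.01 (SE 0.31), and the groups overlapped for both genes.

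**Figure D3:**
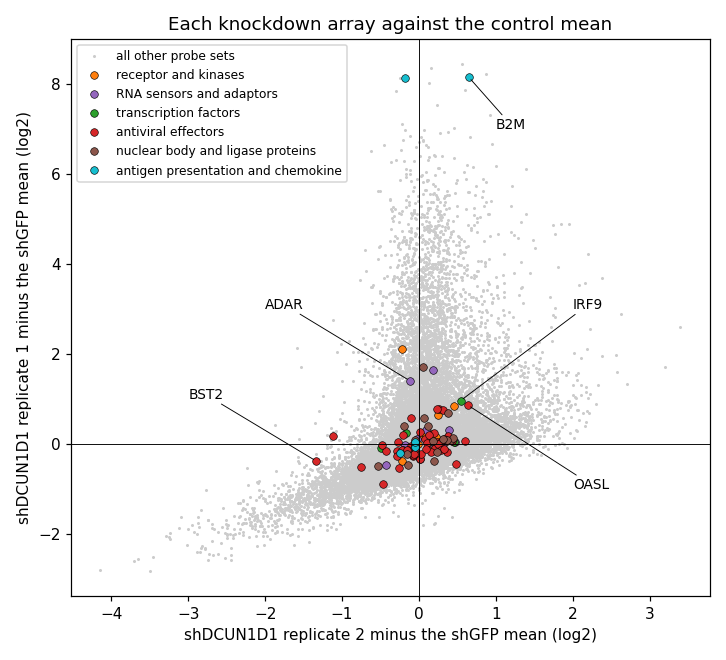
Difference of shDCUN1D1 replicate 2 (x axis) and of shDCUN1D1 replicate 1 (y axis) from the shGFP mean, in log2, for the member probe sets, coloured by role, and all other probe sets in grey. Members far above 0 on the y axis, such as B2M and ADAR, reach 8.15 and 1.40 there against 0.65 and −0.12 on the x axis, while IRF9 lies at 0.96 and 0.54 and OASL at 0.85 and 0.64.

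Set against the control mean separately, the 2 knockdown arrays differed most in their large values. Both were above it for 42 member probe sets, both below it for 34, and they lay on opposite sides for 27. Shares over all probe sets were not taken for these counts, so they describe the members only. Replicate 1 was over 1 log2 above the control mean for 6 member probe sets and replicate 2 for 0, where the shares over all probe sets were 8.36% and 2.09%. The same 6 probe sets, those of B2M (2), JAK1, EIF2AK2, ADAR and DTX3L, were also over 1 log2 above each of the other 3 arrays in replicate 1 (5.83% of the members, against 6.57% of all probe sets). How far the general difference of this array accounts for these values was not tested.

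Probe sets of the same gene often disagreed in sign. Among the 28 genes with several probe sets, 15 had log2 fold changes of both signs, 8 had all above 0 and 5 all below. The median distance between the highest and the lowest probe set of a gene was 0.25 log2, and the largest was 4.62, in B2M. With the mean of its probe sets in place of the brightest, the log2 fold change of OASL was 0.49, of JAK1 0.30, of HERC6 −0.04 and of SP100 −0.06. Of the member probe sets 32 carry an identifier that marks probes shared with other transcripts, of the same gene or of a relative. Their signal may thus include a relative, as among the OAS, IFIT and IFITM families. The IRF9 probe set and the brightest OASL probe set do not carry this mark, whereas the second OASL probe set does.

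**Figure D4:**
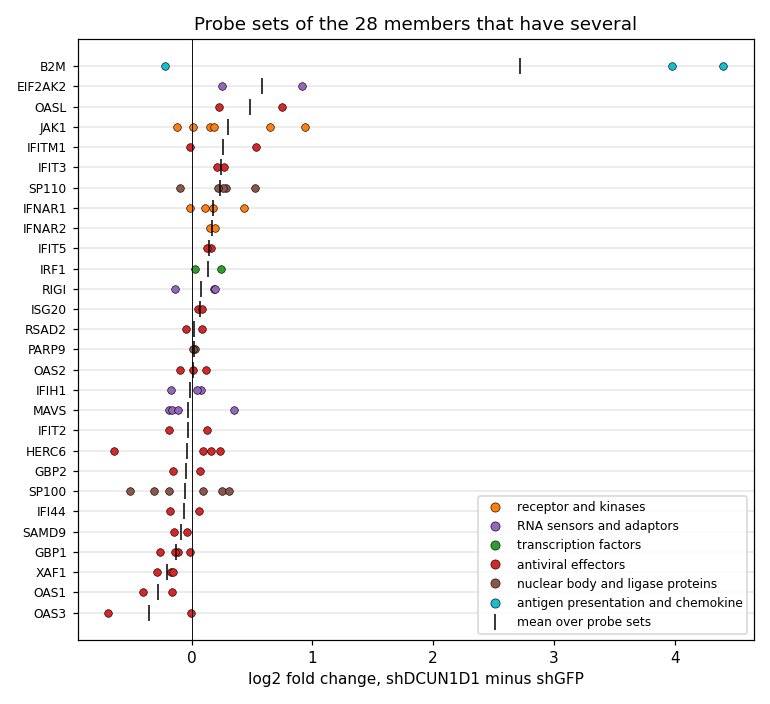
Log2 fold change, shDCUN1D1 minus shGFP (x axis), of each probe set of the 28 genes measured by several (y axis), coloured by role, with the mean per gene as a bar. The points of most genes straddle 0 or lie close to it, and B2M has 2 points near 4 and 1 near −0.22.

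Other genes of the pathway were counted in the same way. Of 65 further interferon pathway genes, among them interferons, adaptors, feedback inhibitors and class I genes, 62 were measured, by 130 probe sets, with 0 higher and 2 lower past the fold bound, against 1.18% and 2.38% of all probe sets, and their log2 fold changes had a median of 0.02. The lower ones were ZBP1, a sensor of Z-form nucleic acid, and SOCS1, a feedback inhibitor of the JAK kinases. ZBP1 read 2.52 and 3.21 in the control arrays and 1.51 and 1.58 in the knockdown arrays, a difference of −1.32 (SE 0.31), whereas its other probe set differed by 0.01. SOCS1 read 1.98 and 1.94 in the shGFP arrays and 1.42 and 1.28 in the shDCUN1D1 arrays, a difference of −0.61 (SE 0.16), and its other probe sets differed by −0.43 and 0.22. IFNB1, the interferon that RNA sensors induce first, read 1.82 and 1.38 in the shGFP arrays and 1.65 and 1.75 in the shDCUN1D1 arrays, with overlapping groups. IFITM3 and HLA-C showed the pattern of B2M, with 6.37 and 6.66 in shDCUN1D1 replicate 1 and at most 2.91 and 2.20 in the other arrays, and their differences of 2.19 and 2.16 became 0.46 and −0.20 without that array.

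The machinery that processes short hairpin RNA and microRNA was examined as well, since both vectors use it. It comprises 14 genes with 49 probe sets. Of these 1 was higher past the bound and 0 lower, against 1.18% and 2.38% of all probe sets, and their median was 0.02 log2. The higher one was DROSHA, the nuclear enzyme that cuts primary microRNA, which read 1.63 and 1.74 in the control arrays, 4.54 in shDCUN1D1 replicate 1 and 2.80 in shDCUN1D1 replicate 2. Both knockdown arrays were above both controls, and the difference was 1.98 (SE 0.62) with all arrays and 1.11 without shDCUN1D1 replicate 1.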

How the data were processed

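RNA of 2 shGFP and 2 shDCUN1D1 cultures was measured on single-channel Affymetrix arrays. The authors deposited 1 table of log2 signal per probe set and array. A base 2 logarithm was inferred from the maximum of 13.1, which no scanner could give in base 10 or as a natural logarithm. Affymetrix Expression Console is named in the submitters' processing notes and dChip in the paper's methods, and it is unsettled which of them made the values. The paper also names another array type than the probe set identifiers show. Of 54715 probe sets, 40914 name 1 gene in the platform annotation, 864 name several, 12835 name none and 102 are controls. Gene IDs of 40858 matched RefSeq.

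All probe sets naming 1 gene were fitted with limma 3.58.1 in R 4.3.3 (variance trend, group as the only term), without further scaling, and members were read from this fit. The fold bound follows the rule of the paper's methods, with limma's error in place of dChip's. Named with array values were members past the bound, members above the nonspecific control with 20 G or C bases on all arrays, the 3 largest changes of brightest probe sets in each role, and DCUN1D1. The reporters IFIT1, MX1, RSAD2 and IFI27, other sensors and B2M's other probe sets were added after their values were seen. So were the probe sets nearest to the bound, IFNB1, IFITM3 and HLA-C. The members, the pathway lists and their roles were chosen with earlier results of these data known, so no test over a list was run. The fit was tested on simulated data. Arrays have no read depth, and their number limits the precision. Alternatives were probe sets per gene, scaling, filters, variance models, the replicate number as a block, the omission of single arrays, other bounds and the methods' t-test. Same-numbered arrays did not deviate together (correlation of deviations −0.037), so the replicate numbers were not treated as pairs.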

Additional observations from a re-analysis of the deposited data

How the results depend on the processing

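IRF9 remained the single member past the fold bound, and 0 members were lower, under quantile normalization, median centring, a robust variance model, the brightest probe set or the mean per gene, and a filter at the median signal. With the replicate block the counts were also 1 higher (IRF9), 0 lower and 0 at an adjusted p under 0.05. The count of higher members was 2 without the probe sets marked as shared between transcripts and 2 without a variance trend (IRF9 and OASL in each). It was 3 at a bound of 1.1 (IRF9, OASL and SP110), 0 at a bound of 1.5 and 0 with the filter on the nonspecific control, which left 7 members. Leaving out single arrays gave 0 to 11 higher, 0 to 1 lower and 0 to 5 members at an adjusted p under 0.05. A lone array left in a group was assumed to vary like the other group. The highest counts came without shDCUN1D1 replicate 2, when 9.8% of all probe sets were higher and limma called 2602 of them. IRF9 was also lost, and OASL called, with the methods' t-test. Lower members numbered 1 with the methods' t-test (SP100) and 2 at a bound of 1.1 (SP100 and OAS3). The median log2 fold change of the members was 0.030 with the brightest probe set per gene, 0.012 with the mean per gene, 0.16 with the filter at the median signal and 0.026 to 0.067 without single arrays. The cause of these shifts was not tested. No result changed sign past its threshold. Signal within the span of the nonspecific controls limits what most of these probe sets can show. With 2 arrays a group, a change smaller than the distance from the estimate to its 95% limit would not be told from 0.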
